A study of Mus musculus with 74 samples.

Results

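Rasa1 encodes a RasGAP, and its targeting was followed here in 51671 lung tumours that carried a guide RNA against it. They were chosen by name: at least 1 of the 2 guides of the tumour was named for Rasa1, and of 54388 such tumours 344 with 1 guide used at both places and 2373 with a guide named NE were left out. They were 13.6% of the 378754 tumours of the series. In 6546 of them the other guide was inert (a safe-cutting, non-targeting or EGFP guide), in 1101 both guides were different Rasa1 guides (named V1 and V2), and in 38151 the other guide was against 1 of 15 named partner genes. Rasa1 lies on mouse chromosome 13 at 85214699 to 85289486, on the minus strand (RefSeq gene 218397, GRCm38.p6). The guides are named by gene in the deposited table, and the site that each one cuts was not used here. Of the 51671 tumours, 25471 were in mice without Cas9, where no guide could cut, and cutting in the others was not looked at.

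Ras proteins are switches that signal for growth while GTP is bound, and RasGAPs turn them off by speeding up the hydrolysis of that GTP. Rasa1 and Nf1, which encodes neurofibromin, are RasGAPs, and the loss of either leaves more Ras in the active state. NF1 and RASA1 are both found mutated in human lung cancer.

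Tumours were started in the lungs of 74 mice with a barcoded lentiviral pool (Lenti-U6BC-sgDbl/Cre) that delivers Cre and 2 guides per virus, and lungs were harvested about 3 months later. All groups shared the genetic background that the labels call KT, which includes the Cre-activated reporter allele R26LSL-Tomato. The 9 KT mice had no Cas9, so no guide could cut there. Sizes were compared within each mouse and then, where stated, with KT, and numbers were compared with KT. The 45 H11-Cas9 mice and the 20 H11-LSL-Cas9 mice also had Cas9 at the H11 locus, in the second group behind a stop cassette that Cre removes. The genotype field names both Cas9 alleles, while the growth protocol writes H11_LSL-Cas9 and H11LSL-Cas9, so the form of the first rests on the genotype field. H11-LSL-Cas9 mouse names begin with letters (HC or MT) found in neither other group, so cohort and genotype cannot be told apart. Names of 5 KT mice (SL) and 6 H11-Cas9 mice (CM) also begin with letters of their own group. Only the letters LA are shared, by KT and H11-Cas9. Each mouse was 1 library and 1 replicate, and its tumours are not replicates.

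KT mice had between 1434013 and 11183386 reads, H11-Cas9 mice between 118601 and 6256147, and H11-LSL-Cas9 mice between 37 and 1161475. One read stood for a median of 4.82, 7.96 and 12.9 cells in the same order, and the smallest tumour listed per mouse had between 50.1 and 369 cells. Sizes therefore describe the tumours above that limit. In 2 H11-LSL-Cas9 mice there were 0 Rasa1 tumours with inert and 0 inert/inert tumours, and they entered no test. The total given to the spike-in cells was near 100000 in 25 H11-Cas9 and 5 KT mice and near 300000 in the other mice. As a possible batch it was used to repeat tests within each total, and no test was adjusted for it. Near 100000 the H11-Cas9 names all began with LA and the KT names with SL, so these letters and genotype cannot be told apart there. Tumours with 2 inert guides (inert/inert), the control inside each mouse, had a geometric mean size per KT mouse of 204 to 576 cells (median over mice 270), per H11-Cas9 mouse of 108 to 394 (median 180) and per H11-LSL-Cas9 mouse of 121 to 423 (median 184). The part of depth and starting size in the differences between groups was not tested.

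The first question was whether loss of Rasa1 alone changed tumour size. With Rasa1 targeted beside an inert guide, tumours were larger than inert/inert tumours in H11-Cas9 mice and not measurably so in the other groups. The geometric mean size of Rasa1 tumours in H11-Cas9 was 118 to 443 cells (median 205). It was 216 to 549 cells for KT mice (median 287) and 117 to 780 for H11-LSL-Cas9 mice (median 175). Within a mouse, the ratio of Rasa1 to inert/inert size lay between 0.815 and 1.87 in H11-Cas9 (median 1.18), between 0.888 and 1.29 in KT (median 1.03), and between 0.505 and 1.33 in H11-LSL-Cas9 (median 0.964). The ranges of the groups overlapped, and 13 of 45 H11-Cas9 mice lay above the highest KT mouse and 3 below the lowest.

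In H11-Cas9 the mean log2 ratio was 0.25 ± 0.042 (SE, n = 45 mice, 1.19-fold), above 0 in 37 mice (sign-flip permutation, adjusted p = 4.25e-05 over 17 genes). A share of 64.7% of single genes passed as higher there and 5.88% as lower, so a larger size was common among the genes of the pool, and Rasa1 ranked 6 of 17. In KT the mean was 0.044 ± 0.049 (5 of 9 mice above 0, adjusted p = 0.863, exact sign-flip permutation). In H11-LSL-Cas9 it was -0.10 ± 0.073, with 5 of 17 mice above 0 (adjusted p = 0.842, sign-flip permutation). The background share was 5.88% in each direction in H11-LSL-Cas9 and 0% in KT, and Rasa1 ranked 15 and 9 of 17 genes there.

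The effect stood in both spike-in totals of H11-Cas9. It was 0.31 in the 25 mice near 100000 (adjusted p = 5.67e-05) and 0.19 in the 20 mice near 300000 (adjusted p = 0.0234), and the totals differed by 0.12 ± 0.084 (permutation, adjusted p = 0.343). Against KT, the H11-Cas9 effect was larger by 0.21 ± 0.065 (studentised label permutation, adjusted p = 0.0393, with 34 of 45 mice above the KT median), where 23.5% of single genes passed as higher. That difference from KT missed the threshold with the plain difference of means (adjusted p = 0.149), within either total (0.22 and 0.19, adjusted p = 0.386 and 0.287) and without KT replicate 1, 2, 3, 4, 7, 8 or 9 (adjusted p from 0.0606 to 0.0837). H11-LSL-Cas9 lay 0.14 ± 0.088 below KT (adjusted p = 0.628, 13 of 17 mice below the KT median). With only tumours of at least 500 cells counted, 10 H11-Cas9 mice had enough tumours, and the effect was 0.31 with an adjusted p of 0.174.

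**Figure D1:**
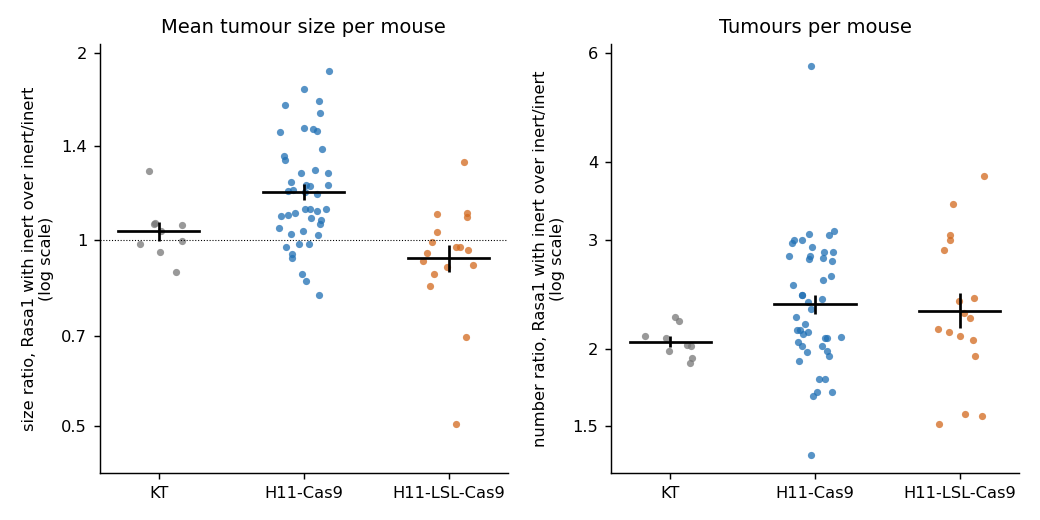
Ratio of Rasa1 with inert to inert/inert in each mouse, for geometric mean tumour size (left) and tumour number (right), on log axes. Each point is 1 mouse of KT, H11-Cas9 or H11-LSL-Cas9, and the bar is the mean ± SE. The size ratios of H11-Cas9 run from 0.815 to 1.87 around a median of 1.18 and overlap those of KT, which run from 0.888 to 1.29.

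In H11-Cas9 the ratio of Rasa1 to inert/inert size was higher at the upper percentiles of size than at the lower ones. In the 33 mice with at least 20 tumours of both kinds, the 25th percentile of Rasa1 tumours was 1.09 times that of inert/inert tumours (22 of 33 mice above 1, adjusted p = 0.0664) and the median 1.15 times (24 mice, adjusted p = 0.00432). The 75th percentile was 1.30 times (23 mice, adjusted p = 0.00147), the 90th 1.48 times (25 mice, adjusted p = 6e-05) and the 95th 1.73 times (28 mice, adjusted p = 4e-05, all by sign-flip permutation over 12 genes). These ratios grew with the percentile, from a log2 value of 0.12 ± 0.048 at the 25th to 0.79 ± 0.16 at the 95th, but they were not tested against each other. The smallest tumour listed per H11-Cas9 mouse had 50.1 to 105 cells, which bounds the low percentiles. Inert/inert tumours were also fewer, with a median of 24 per H11-Cas9 mouse against 57 with Rasa1. The part of either in the growth of the ratios was not tested. This minimum of 20 tumours was chosen after the data were seen. The same ratios lay between 0.964 and 1.10 for KT and between 0.911 and 1.05 for H11-LSL-Cas9, and none passed by the exact sign-flip permutation, adjusted or not. Each of these groups had 9 mice here, and the spread of H11-LSL-Cas9 was wide. Its log2 values were -0.11 ± 0.26 at the 90th percentile and 0.069 ± 0.34 at the 95th. Of all H11-Cas9 tumours, 273 of 2604 with Rasa1 (10.5%) and 62 of 1107 inert/inert tumours (5.60%) had at least 1000 cells. In KT those shares were 17.2% and 17.1%, and in H11-LSL-Cas9 5.77% and 4.75%. The largest Rasa1 tumour with an inert guide held 59049 cells in H11-Cas9, against 9625 for the largest inert/inert tumour. These were 15105 and 11555 cells in KT and 14283 and 6589 in H11-LSL-Cas9. Each is a single tumour, and inert/inert tumours were fewer in every group.

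**Figure D2:**
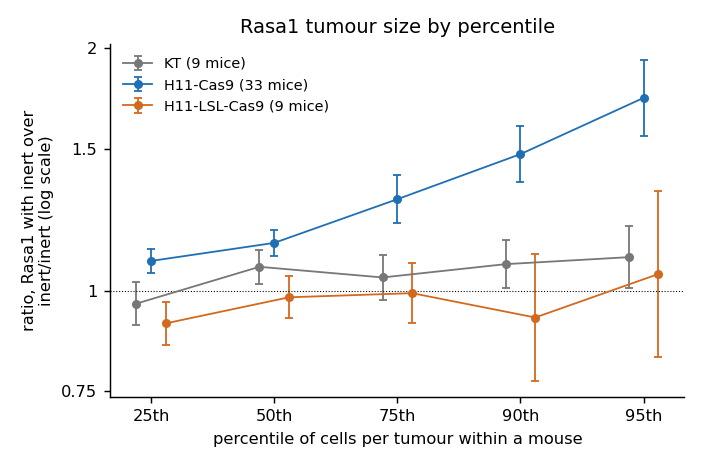
Ratio of Rasa1 with inert to inert/inert at 5 percentiles of tumour size, per group, as mean ± SE over mice with at least 20 tumours of both kinds. In H11-Cas9 the ratio is 1.09 at the 25th and 1.73 at the 95th percentile, while KT and H11-LSL-Cas9 stay between 0.911 and 1.10.

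Both Rasa1 guides gave larger tumours in H11-Cas9. The size effect was 0.32 ± 0.057 for guide V1 (35 of 45 mice above 0, adjusted p = 4.5e-05) and 0.21 ± 0.056 for V2 (33 of 45, adjusted p = 0.00182), and V1 minus V2 was 0.11 ± 0.074 (21 of 45 above 0, adjusted p = 0.537). With the Rasa1 guide in place 1 the effect was 0.27 ± 0.045, and in place 2 it was 0.23 ± 0.059. Tumours with V1 and V2 together were 0.24 ± 0.086 above inert/inert (28 of 41 mice, adjusted p = 0.0202, sign-flip permutation over 9 genes). They differed from tumours with a single Rasa1 guide by -0.014 ± 0.091 (adjusted p = 0.984), so a gain from the further guide was not detectable with this spread. In KT the values were 0.072 for V1, 0.032 for V2, -0.0033 for place 1, 0.12 for place 2 and 0.10 for V1 and V2 together, and none passed (exact sign-flip permutation, adjusted p from 0.68 to 0.98). The guides share their target and are no replicates of each other.

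The next comparison was the size of tumours with guides against Rasa1 and a partner gene, set against inert/inert tumours of the same mouse. In H11-Cas9, 8 of 15 partners gave pairs that passed as larger and none as smaller, where 35.8% of the 106 pairs of the whole pool passed as higher and 0.943% as lower. The median over the 15 Rasa1 pairs was 0.27 and over all pairs 0.18. All pairs of a mouse share its inert/inert tumours, so the counts are not independent.

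The pair with Nf1, the other RasGAP of the pool, was the largest. Its ratio to inert/inert ran from 0.714 to 3.06 over the mice (median 1.40), and the mean effect was 0.46 ± 0.055, above 0 in 42 of 45 mice (adjusted p = 6.24e-05, sign-flip permutation). Nf1 alone with inert gave 0.43 in the same mice. The pair with p53, the transcription factor that answers DNA damage, had ratios of 0.79 to 2.03 (median 1.30) and an effect of 0.41 ± 0.047 (42 of 45 mice, adjusted p = 6.24e-05), against 0.29 for p53 alone. With Rb1, which restrains entry into the cell cycle, the pair gave 0.27 ± 0.051 (36 of 45 mice, adjusted p = 6.24e-05), against 0.15 for Rb1 alone.

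Lkb1 encodes a kinase upstream of AMPK, and its pair with Rasa1 was the most variable of those that passed. Ratios ran from 0.619 to 4.31 (median 1.16), and the effect was 0.34 ± 0.089 (30 of 44 mice, adjusted p = 0.00114). By the median tumour in place of the mean log2 size it turned to -0.10 (adjusted p = 0.27). The largest Rasa1 tumour of the H11-Cas9 group carried Lkb1 as partner. Of the Wnt pathway genes, Rnf43, a ubiquitin ligase that removes Wnt receptors, gave 0.30 ± 0.046 (36 of 45 mice, adjusted p = 6.24e-05). Apc, a scaffold of the complex that degrades beta-catenin, gave 0.21 ± 0.065 (27 of 45 mice, adjusted p = 0.0083). Keap1 targets the stress response factor NRF2 for degradation, and its pair did not pass, with 0.023 ± 0.064 (19 of 45 mice, adjusted p = 0.795).

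Among genes that act on chromatin, the pair with Setd2, a histone methyltransferase of transcribed genes, was as large as that with p53. Its ratios ran from 0.798 to 3.17 (median 1.25), with an effect of 0.41 ± 0.064 (38 of 45 mice, adjusted p = 6.24e-05). Pairs with the methyltransferases Kmt2a (0.087, 26 mice) and Kmt2b (-0.30, 12 mice), the acetyltransferase Kat7 (0.16, 15 mice) and the subunit of its complex Meaf6 (0.32, 3 mice) did not pass, and each had few mice with 5 or more such tumours. Of the cyclin L genes, whose products bind kinases that act in splicing, Ccnl2 gave 0.39 ± 0.077 (30 of 37 mice, adjusted p = 0.000112) and Ccnl1 0.24 ± 0.12 (15 of 24 mice, adjusted p = 0.127). Pairs with Pcna, the sliding clamp of DNA replication, were left in 4 mice, all with smaller tumours (-0.85 ± 0.24). An exact sign-flip test cannot go below 0.125 with 4 mice. In the order of the 8 pairs that passed, each neighbour differed from the next by less than the larger of their standard errors.

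The same pairs did not pass in the other groups. In KT, 0 of 15 Rasa1 pairs passed by the sign-flip permutation, 0 had an unadjusted p under 0.05, and the median effect was 0.021. In H11-LSL-Cas9, 0 of 14 passed, where 2.73% of all pairs passed as higher, and 1 (Pcna, -0.40 ± 0.12) had an unadjusted p under 0.05. The highest H11-LSL-Cas9 values among partners with at least 10 mice were Nf1 at 0.17 ± 0.085 (13 of 17 mice, adjusted p = 0.322) and p53 at 0.091 ± 0.087 (13 of 17, adjusted p = 0.797).

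Set against KT, 5 of 15 H11-Cas9 pairs passed as larger, where 17.9% of all pairs did. They were Nf1 (0.50 ± 0.10 above KT, adjusted p = 0.00106), Ccnl2 (0.43 ± 0.13, adjusted p = 0.032), p53 (0.37 ± 0.083, adjusted p = 0.00697), Setd2 (0.36 ± 0.087, adjusted p = 0.0188) and Rnf43 (0.31 ± 0.082, adjusted p = 0.0188), all by studentised label permutation. Pairs with Lkb1 (0.36 ± 0.12, adjusted p = 0.0687) and Rb1 (0.19 ± 0.066, adjusted p = 0.0694) missed the threshold. With only tumours of at least 500 cells 1 of 15 pairs passed against inert/inert, and by the median tumour 4 did. Within the totals near 100000 and 300000, 8 and 5 passed as larger.

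**Figure D3:**
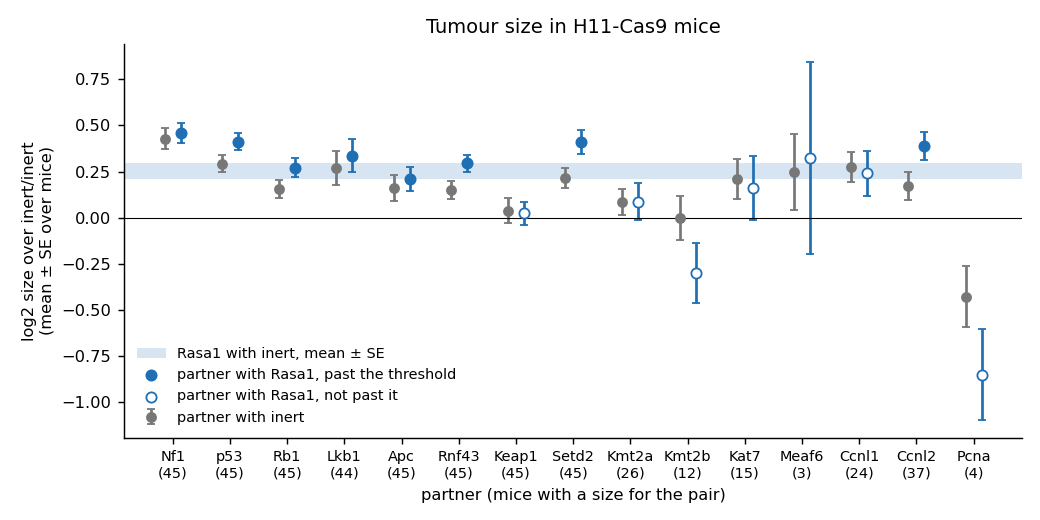
Size effect in H11-Cas9 mice (log2 of the ratio to inert/inert, mean ± SE over mice) of each partner with inert and of the same partner with Rasa1, with a band for Rasa1 with inert (0.25 ± 0.042). Pairs with Nf1, p53 and Setd2 reach 0.46, 0.41 and 0.41, and the pair with Keap1 stays at 0.023.

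A step is the change in size between a pair and 1 of its genes with an inert guide, in the same mouse. Adding Rasa1 in H11-Cas9 passed the threshold as raising size on 3 of 15 partners and as lowering it on none. Of the 212 steps of all genes, 8.96% passed as higher and 2.83% as lower. The step ran from 0.71 to 1.67 on p53 (median 1.09), with a mean log2 value of 0.12 ± 0.034 (30 of 45 mice, adjusted p = 0.0101). On Setd2 it ran from 0.574 to 2.23 (median 1.11), with a mean of 0.19 ± 0.062 (29 of 45 mice, adjusted p = 0.0258). On Rnf43 it ran from 0.688 to 1.97 (median 1.13), with a mean of 0.15 ± 0.049 (28 of 45 mice, adjusted p = 0.0437). In each of these, mice on both sides of no change were present.

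Other partners gave values that did not pass. Adding Rasa1 to Ccnl2 gave 0.22 ± 0.10 (adjusted p = 0.212), to Rb1 0.12 ± 0.050 (adjusted p = 0.128), to Lkb1 0.073 ± 0.10 and to Apc 0.046 ± 0.074. On Nf1 the step was 0.029 ± 0.042 (22 of 45 mice above 0, adjusted p = 0.746), and on Keap1 -0.014 ± 0.063 (25 of 45 above 0, adjusted p = 0.966). Steps on Pcna (-0.72, 4 mice), Kmt2b (-0.28, 9 mice), Kmt2a (-0.072, 25 mice) and Ccnl1 (-0.038, 24 mice) were below 0 as well. Those on Kat7 (0.14, 14 mice) and Meaf6 (0.27, 2 mice) were above it. With 4 mice an exact sign-flip test cannot go below 0.125, so the steps on Pcna and Meaf6 could not pass. The median of the 15 steps was 0.073, with 10 above 0, and that of all steps -0.014. None of the 3 steps that passed did so within either spike-in total, at the 90th percentile of size or among tumours of at least 200 cells. Against KT none passed by the studentised label permutation, with 3 of 15 at an unadjusted p under 0.05, and of all steps 0.943% passed as higher and 0.472% as lower. In H11-LSL-Cas9 (0 of 14, where 1.84% of steps passed as higher and 0.922% as lower) and KT (0 of 15) none passed by the sign-flip permutation either. At an unadjusted p under 0.05 there were none in H11-LSL-Cas9 and 1 in each direction in KT.

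Read the other way, and within H11-Cas9 mice alone, a partner added to Rasa1 raised size for Nf1 and p53 and lowered it for Keap1 (2 and 1 of 15, beside the same 8.96% and 2.83% of all steps). Nf1 added 0.20 ± 0.054 (35 of 45 mice, adjusted p = 0.00579) and p53 0.16 ± 0.044 (30 of 45 mice, adjusted p = 0.0101). Keap1 took the ratio to between 0.542 and 1.92 (median 0.845), a mean of -0.23 ± 0.050 with 34 of 45 mice below 0 (adjusted p = 0.000909). With Kmt2b the mean was -0.55 ± 0.15, below 0 in 10 of 12 mice, and it missed the threshold (adjusted p = 0.0518). That call hangs on the tests counted with it: steps of at least 2 mice were tested, and with at least 3 mice the adjusted p is 0.0496. The steps of Setd2 (0.16 ± 0.060, adjusted p = 0.0659), Rnf43 (0.042 ± 0.046) and Rb1 (0.017 ± 0.048) did not pass. Within each spike-in total none of these steps passed. Set against KT none did either: Nf1 added 0.29 ± 0.081 more than in KT (adjusted p = 0.0827), p53 0.16 ± 0.066 (adjusted p = 0.195) and Keap1 -0.20 ± 0.072 (adjusted p = 0.144, studentised label permutation). There 3 of 15 partners were higher and 1 lower at an unadjusted p under 0.05.

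Averaged over its partners within each mouse, adding Rasa1 gave a mean step of 0.066 ± 0.025 in H11-Cas9 (31 of 45 mice above 0, adjusted p = 0.0269 by sign-flip permutation over 16 genes). This measure uses no inert/inert tumours. For 37.5% of genes the mean step passed as higher and for 12.5% as lower, and Rasa1 ranked 6 of 16. The mean step was -0.0053 in KT and -0.0050 in H11-LSL-Cas9, and the difference of H11-Cas9 from KT was 0.071 ± 0.028 (adjusted p = 0.0522, with 25% of genes past the threshold as higher). In H11-LSL-Cas9 6.25% of genes passed in each direction. The H11-Cas9 value missed the threshold within the total near 100000 (0.048, adjusted p = 0.316), at the 90th percentile (0.10, adjusted p = 0.0917) and from 200 cells (0.085, adjusted p = 0.0731), and turned to -0.052 from 500 cells.

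An interaction is what remains of a pair's size effect once the effects of its genes with inert are taken off. In H11-Cas9, all 15 Rasa1 pairs had a mean below 0, and 2 passed, where 20.8% of 106 pairs passed as lower and 0.943% as higher. For Keap1 the interaction was -0.27 ± 0.072 (33 of 45 mice below 0, adjusted p = 0.00742). For Nf1 it was -0.22 ± 0.063 (26 of 45 below 0, adjusted p = 0.00787), and ratios ran from 0.353 to 1.34 with a median of 0.935. The median over Rasa1 pairs was -0.18 and over all pairs -0.21, and 14 of the 106 pairs of the pool lay above 0. Without Cas9, in KT, 12 of 15 Rasa1 interactions were below 0 too (median -0.061), with 40 of all 134 above 0, and none passed by the exact sign-flip permutation (1 of 15, Pcna, lower at an unadjusted p under 0.05). Every interaction of a mouse adds the same inert/inert mean, which all of them share. Neither passed against KT (0 of 15 also at an unadjusted p under 0.05, studentised label permutation), by the median tumour, with safe-cutting guides alone as inert, or within the total near 300000. In H11-LSL-Cas9 none of 14 passed, 0 had an unadjusted p under 0.05 by the sign-flip permutation, and 11 of 14 means were above 0 (median 0.11), beside 55 of 107 over all pairs (median 0.0014).

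The number of tumours was the other measure, and it was read against KT because the share of each construct in the virus pool sets the ratio there. With Rasa1 and an inert guide, a KT mouse had 171 to 614 tumours (median 296), an H11-Cas9 mouse 24 to 105 (median 57) and an H11-LSL-Cas9 mouse 0 to 99 (median 46.5). Inert/inert tumours numbered 86 to 304 (median 136), 5 to 51 (median 24) and 0 to 47 (median 19). The ratio of Rasa1 to inert/inert numbers, with 0.5 added to both, was 1.89 to 2.25 for KT mice (median 2.03), 1.35 to 5.73 for H11-Cas9 mice (median 2.32) and 1.51 to 3.80 for H11-LSL-Cas9 mice (median 2.25). The Cas9 groups spread on both sides of the KT range: 24 of 45 H11-Cas9 mice lay above its highest mouse and 6 below its lowest.

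In log2 terms Rasa1 tumours were more numerous in H11-Cas9 than in KT by 0.20 ± 0.059 (1.15-fold, 33 of 45 mice above the KT median, adjusted p = 0.00748 by studentised label permutation over 17 genes). There 23.5% of single genes passed as higher and 52.9% as lower, and Rasa1 ranked 4 of 17. In H11-LSL-Cas9 the difference was 0.17 ± 0.098 (13 of 17 mice above the KT median, adjusted p = 0.17), again with rank 4 of 17. The H11-Cas9 call was lost with the plain difference of means (adjusted p = 0.141), with safe-cutting guides alone as inert (0.13, adjusted p = 0.119), in the mice whose names begin with LA alone (0.16, adjusted p = 0.132) and within each total (0.19 and 0.22, adjusted p = 0.118 and 0.0832). By guide, V1 gave 0.19 ± 0.088 (adjusted p = 0.0614) and V2 0.21 ± 0.071 (adjusted p = 0.0154), and V1 over V2 differed from KT by -0.021 ± 0.10.

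Pairs with Rasa1 differed far more in number than in size, and in both directions. In H11-Cas9, 3 of 15 pairs were more numerous than in KT and 6 less, where 14% of 136 pairs passed as higher and 56.6% as lower. The pair with Nf1 was at 1.23 to 1.48 of inert/inert in KT (median 1.39) and at 1.10 to 6.82 in H11-Cas9 (median 1.97). That was a rise of 0.58 ± 0.070, with 43 of 45 mice above the highest KT mouse (adjusted p = 2.67e-05). The pair with p53 rose by 0.44 ± 0.086 (38 of 45 mice above the KT median, adjusted p = 0.000386) and that with Rb1 by 0.19 ± 0.079 (31 of 45, adjusted p = 0.039). With inert in place of Rasa1, the H11-Cas9 differences from KT were 0.41 for Nf1, 0.22 for p53 and -0.053 for Rb1.

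The pairs that became rarer had partners of several kinds. Pcna, which every dividing cell needs, went from a ratio of 1.19 to 1.69 in KT to 0.012 to 0.333 in H11-Cas9, a log2 difference of -4.03 ± 0.19 with all 45 mice below the lowest KT mouse. Lkb1 fell by 0.999 ± 0.083 (43 of 45 mice below the lowest KT mouse), Kmt2b by 0.91 ± 0.16 (35 of 45) and Keap1 by 0.72 ± 0.085 (41 of 45). Kat7 fell by 0.54 ± 0.16 (adjusted p = 0.0238) and Apc by 0.36 ± 0.097 (adjusted p = 0.00363), and the adjusted p of the others was at most 0.000132. Setd2 (-0.079), Rnf43 (0.11), Kmt2a (0.22), Ccnl1 (0.23), Ccnl2 (0.11) and Meaf6 (-0.22) did not pass. The partners of the rarer pairs were below KT with inert in place of Rasa1 too, and by no less. Their differences were -4.16 for Pcna, -1.19 for Lkb1, -1.06 for Kmt2b, -0.97 for Keap1, -0.55 for Kat7 and -0.67 for Apc. Within each of the totals near 100000 and 300000, 2 pairs passed as more numerous, with 5 and 4 as rarer.

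In H11-LSL-Cas9, 1 pair was more numerous (Nf1, 0.31 ± 0.10, 13 of 17 mice above the highest KT mouse, adjusted p = 0.0193), where 12.5% passed as higher and 27.9% as lower. The pairs with Pcna (-1.67 ± 0.088), Kmt2b (-0.61 ± 0.21) and Keap1 (-0.28 ± 0.11) were rarer. With inert in place of Rasa1, the values were 0.24 for Nf1, -1.70 for Pcna, -0.59 for Kmt2b and -0.48 for Keap1. The call for the Nf1 pair was lost with the plain difference of means (adjusted p = 0.0949) and with safe-cutting guides alone as inert (0.22, adjusted p = 0.165). The size of the tumours counted mattered in both Cas9 groups. Among tumours of at least 1000 cells, 11 of 15 H11-Cas9 pairs passed as more numerous and 1 as rarer, where 67.6% and 14.7% of all 136 pairs did. At that size 12 of 45 H11-Cas9 mice and 10 of 20 H11-LSL-Cas9 mice, and no KT mouse, had 0 inert/inert tumours, so the 0.5 added to each number weighs there.

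The step of adding Rasa1 to a partner gives its effect on number with no use of inert/inert tumours. In H11-Cas9 it was above KT for all 15 partners, beside 119 of the 272 steps of all genes. It passed for 8 partners, where 22.8% of the 272 steps passed as higher and 33.8% as lower. The median was 0.24, against -0.069 over all steps, and all the steps are set against the same 9 KT mice. On the RasGAP Nf1 the ratio was 0.572 to 0.674 for KT mice (median 0.619) and 0.44 to 1.14 for H11-Cas9 mice (median 0.711), a difference of 0.17 ± 0.053 (adjusted p = 0.00928). On p53 it was 0.21 ± 0.060 (adjusted p = 0.00566) and on Rb1 0.24 ± 0.064 (adjusted p = 0.00361).

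The Wnt genes had steps of 0.26 ± 0.059 on Rnf43 (adjusted p = 0.00202) and 0.31 ± 0.093 on Apc (adjusted p = 0.0176). The step was 0.26 ± 0.076 on Keap1 (adjusted p = 0.00651), 0.24 ± 0.082 on Setd2 (adjusted p = 0.0237) and 0.38 ± 0.15 on Kmt2a (adjusted p = 0.0407). The smallest was on Kat7, at 0.0060 ± 0.20. The counts rest on the studentised test and on all mice together: 1 step passed with the plain difference of means, none in LA mice alone, and 1 and 2 within the totals near 100000 and 300000. In H11-LSL-Cas9, 12 of 15 steps were above 0 and 2 passed, Rb1 (0.36 ± 0.069, adjusted p = 0.000946) and Rnf43 (0.25 ± 0.088, adjusted p = 0.0394), where 10.3% passed as higher and 12.5% as lower. Of all 272 steps in that group, 129 were above 0.

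A partner added to Rasa1 changed number in H11-Cas9 for 9 of 15 genes, 2 up and 7 down, beside the 22.8% and 33.8% of all steps given above. Nf1 (0.38 ± 0.056, adjusted p = 0.000184) and p53 (0.24 ± 0.065, adjusted p = 0.00311) raised it. Pcna (-4.23), Lkb1 (-1.20), Kmt2b (-1.11), Keap1 (-0.92), Kat7 (-0.74), Apc (-0.56) and Setd2 (-0.28) lowered it. In H11-LSL-Cas9, Pcna (-1.84), Kmt2b (-0.78), Keap1 (-0.45), Lkb1 (-0.43) and Apc (-0.35) lowered it and none raised it (5 and 0 of 15, beside 12.5% and 10.3% of all steps). No number interaction of Rasa1 passed in either group, and 0 of 15 had an unadjusted p under 0.05 by the studentised label permutation. Of all pairs 11.8% passed as higher and 0.735% as lower in H11-Cas9, while H11-LSL-Cas9 had 0% in each direction.

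**Figure D4:**
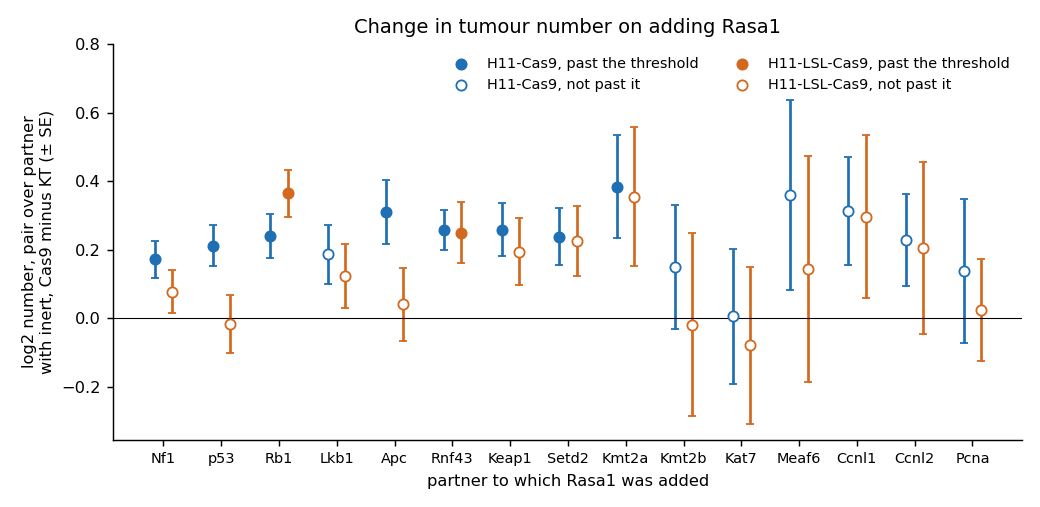
Change in tumour number on adding Rasa1 to each partner (log2, Cas9 group minus KT, mean difference ± SE) in H11-Cas9 and H11-LSL-Cas9. All 15 H11-Cas9 values lie above 0, from 0.0060 on Kat7 to 0.38 on Kmt2a, and 12 of 15 H11-LSL-Cas9 values do.

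Set beside the genes most like it in role or in number, Rasa1 gave smaller and fewer tumours than Nf1 in H11-Cas9, and no difference from p53 passed the threshold. In H11-Cas9, Rasa1 tumours were smaller than Nf1 tumours of the same mouse by a log2 difference of -0.17 ± 0.053 (above 0 in 15 of 45 mice, adjusted p = 0.00931 by sign-flip permutation over 136 comparisons). In H11-LSL-Cas9 the difference was -0.20 ± 0.051 (above 0 in 3 of 18 mice, adjusted p = 0.0154), and in KT 0.074 ± 0.038 (8 of 9 mice, adjusted p = 0.558, exact sign-flip permutation). Within the spike-in totals the H11-Cas9 difference was -0.20 (adjusted p = 0.124) and -0.14 (adjusted p = 0.183). In number, Rasa1 lay below Nf1 by 0.21 ± 0.060 in H11-Cas9 relative to KT (adjusted p = 0.0055), and the H11-LSL-Cas9 value was -0.069 ± 0.069 (adjusted p = 0.444). Against p53 the H11-Cas9 differences were -0.038 ± 0.043 in size (adjusted p = 0.528) and -0.024 ± 0.049 in number (adjusted p = 0.647).

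The Cas9 groups themselves differed for Rasa1 with inert in size. The size effect of Rasa1 with inert was larger in H11-Cas9 than in H11-LSL-Cas9 by 0.35 ± 0.085 (studentised label permutation, adjusted p = 0.00153), where 17.6% of single genes passed as higher. The pair with Setd2 differed by 0.41 ± 0.098 (adjusted p = 0.00663, 1.96% of pairs passed as higher), and no step in size did (0.99% of all steps passed as higher, 0 of 14 for adding Rasa1, 0 higher and 1 lower at an unadjusted p under 0.05). For number with inert the difference was 0.034. Of 15 Rasa1 pairs, 3 passed as lower in number in H11-Cas9 than in H11-LSL-Cas9 and 1 as higher. Of all 136 pairs, 44.1% passed as lower and 0.735% as higher. All 20 H11-LSL-Cas9 mice had the total near 300000. Their median number of reads was 355640, against 849546 in H11-Cas9, with overlapping ranges. Genotype, cohort and depth therefore cannot be told apart here.

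The gene whose steps over partners lay closest to those of Rasa1 in size, by root mean square difference in H11-Cas9, was Rnf43 (0.19 over 14 partners), followed by Ccnl2 (0.21 over 10) and Apc (0.23 over 11). In number the closest were p53 (0.17), Nf1 (0.21) and Rnf43 (0.25), each over 15 partners. These steps share mice and partner tumours, and the order is a description.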

How the data were processed

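Lungs of 74 mice were sequenced as 1 library each, from 32 µg of DNA with paired reads of 150 bases, per the labels' protocols. The deposited table lists tumours with their guides, the counts of reads (not normalized, per the file headers) and a signal, the cells per tumour that the authors estimated from spike-ins, proportional to reads within a mouse. How the table was made, with its minimum size, is not stated in the labels.

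Sizes were mean log2 cells per mouse, with at least 5 tumours of each kind, tested by 2-sided sign flips (exact up to 16 mice, otherwise 100000 resamples). Numbers were log2 ratios with 0.5 added, in mice with at least 5 inert/inert tumours. These, and sizes against KT, were set against KT by permuting mouse labels of the difference over its standard error. Adjusted p-values are Benjamini-Hochberg over all 17 genes, or over all pairs or steps of a group, with a threshold of 0.05; 1e-05 is the smallest unadjusted p the resamples can give. Python 3.11.15, numpy 2.4.6, pandas 2.3.3 and matplotlib 3.10.9 were used, and the tests were run first on simulated data.

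All partners were to be named, with full statistics where a result passed; results with 1 further partner are not reported here. Members and lists were chosen with earlier results of these data known. The labels number no replicates, so mice are numbered in accession order.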

Additional observations from a re-analysis of the deposited data

Results flagged for a closer look

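Of 73 sets of values from few mice, taken over all groups, 2 had a mouse far from the others. Chance gives about 1 in 20, and the 2 sets were of KT mice. For the size of Rasa1 with inert, KT replicate 5 was at a log2 ratio of 0.37, with the nearest other mouse at 0.09, a gap of 0.518 of the whole range. For the size of the Ccnl2 pair, KT replicate 7 was at -0.70, with the nearest at -0.23, a gap of 0.494 of the range. Both gaps passed the limit of 0.493 for 9 mice.

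The Cas9 groups differed by the studentised label permutation (H11-Cas9 minus H11-LSL-Cas9, log2) in the size effect of Rasa1 with inert (0.35) and of its pair with Setd2 (0.41). In number they differed for the pairs with Keap1 (-0.43), Lkb1 (-0.73), Nf1 (0.27) and Pcna (-2.35), where 44.1% of all pairs passed as lower and 0.735% as higher. They also differed for Keap1 (-0.47), Lkb1 (-0.77), Nf1 (0.23) and Pcna (-2.39) added to Rasa1 and for Rasa1 added to p53 (0.23). Of all steps in number, 21% passed as lower and 3.68% as higher.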

How the results depend on the processing

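No paired analysis was possible because replicate numbers are accession order only; sizes are already paired within each mouse. Counts that were 0 under every setting are not repeated. Over all alternatives, reported values and counts kept their direction and side of the threshold (counts within 1.5 times) in 208 cases, lost a call in 21, gained 1 in 3 and turned in sign in 12, and 68 counts moved further. Single pairs and steps kept theirs in 389 cases, lost a call in 143, gained 1 in 2 and turned in 14. The cause was not tested, but a single spike-in total, LA mice alone and 200, 500 or 1000 cells leave fewer mice or tumours. Leaving out each KT replicate in turn gave differences from KT of 0.18 to 0.25 in size and 0.19 to 0.22 in number for H11-Cas9. For H11-LSL-Cas9 they were -0.17 to -0.10 and 0.15 to 0.18. The least number of mice was not planned, and a minimum of 3 in place of 2 left every size call but 1 in place: lowering partners in H11-Cas9 became 2, with Kmt2b.

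For Rasa1 with inert, the H11-Cas9 size effect lost its call from 500 cells (0.31). Its difference from KT lost it with the plain difference (0.21) and within the totals near 100000 (0.22) and 300000 (0.19). The H11-LSL-Cas9 size effect turned to 0.013 at the 90th percentile and 0.042 from 200 cells. The KT effect turned to -0.0047 in LA mice and in the total near 300000, which are the same mice, and to -0.020 with NE as inert, and passed at 0.13 with same-guide constructs kept. The difference from Nf1 in H11-Cas9 lost its call in both totals (-0.20 and -0.14). The number in H11-Cas9 lost its call with the plain difference (0.20), LA mice (0.16), safe guides (0.13) and both totals (0.19 and 0.22). That in H11-LSL-Cas9 turned to -0.21 from 1000 cells and -0.026 from 200, and passed over all other tumours (0.36) and with same-guide constructs (0.30). From 1000 cells 10 of 20 H11-LSL-Cas9 mice had no inert/inert tumours, so the amount added to each number weighs on the value of -0.21.

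In size, H11-Cas9 pairs that passed as larger became 1 from 500 cells, 4 by the median and 5 in the total near 300000. H11-LSL-Cas9 pairs became 1 higher with at least 10 tumours, and 1 lower at the 90th percentile and with safe guides. The Lkb1 pair turned to -0.10 by the median. Steps raised by Rasa1 in H11-Cas9 became 1 by the median, and 0 at the 90th percentile, from 200 or 500 cells and in each total. From 500 cells those on Rnf43 and Setd2 turned to -0.065 and -0.026. Partners that raised size became 1 by the median, and 0 at the 90th percentile, from 500 cells and in each total. Partners that lowered it became 2 at the 90th percentile, 3 by the median, and 0 from 200 or 500 cells and in each total. In H11-LSL-Cas9 1 partner lowered it at the 90th percentile and with NE as inert. Interactions below 0 became 5 at the 90th percentile, 4 in LA mice, 7 with same-guide constructs, and 0 from 500 cells, by the median, with safe guides and near 300000. The mean step in H11-Cas9 lost its call at the 90th percentile (0.10), from 200 cells (0.085) and near 100000 (0.048), and turned to -0.052 from 500. In H11-LSL-Cas9 it turned to 0.0034 with NE as inert, 0.030 with at least 10 tumours, 0.20 from 500 cells and 0.017 by the median.

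In number, H11-Cas9 pairs above KT became 1 in LA mice, 11 from 1000 cells and 5 with a pseudocount of 1, and pairs below KT 1 from 1000 cells. H11-LSL-Cas9 pairs above KT became 8 from 1000 cells, 2 with a pseudocount of 1, 3 with same-guide constructs, and 0 from 200 cells, with the plain difference, with safe guides and in the mice near 300000. Those below became 1 from 1000 cells, with the plain difference, with same-guide constructs and near 300000. Steps raised by Rasa1 in H11-Cas9 became 0 in LA mice, 1 with the plain difference and near 100000, and 2 near 300000. In H11-LSL-Cas9 they became 0 from 200 or 1000 cells, and 1 with the plain difference and near 300000. Partners that raised number in H11-Cas9 became 1 in LA mice, with the plain difference and near 300000, and 4 from 1000 cells. Those that lowered it became 4 in LA mice and near 300000, and 3 from 1000 cells. In H11-LSL-Cas9, 9 raised it from 1000 cells and 1 from 200. There the lowering ones became 0 from 1000 cells, 3 with the plain difference and 2 near 300000. From 1000 cells the H11-Cas9 pairs with Apc, Kat7, Kmt2b and Lkb1 turned to 0.63, 1.18, 0.70 and 0.015, and Kat7 and Setd2 added to Rasa1 to 0.40 and 0.17. In H11-LSL-Cas9 the Kmt2b pair turned to 1.51, and Apc, Keap1, Kmt2b and Lkb1 added to Rasa1 to 0.73, 0.19, 1.72 and 0.42. At that size 10 of 20 H11-LSL-Cas9 mice had no inert/inert tumours, and 7 had no tumours of Rasa1 with inert. In H11-Cas9 these were 12 and 1 of 45 mice. The pseudocount therefore weighs on the counts and signs from 1000 cells, and they cannot show whether a direction changed. Of all 136 H11-LSL-Cas9 pairs, 64% passed as higher there and 5.88% as lower.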

Other observations

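The Rasa1 tumours left out of the comparisons were counted apart, an addition made after the data were seen. With a guide named NE, H11-Cas9 mice held 969 tumours and KT 1083, and the size effect differed by 0.22 ± 0.092 (adjusted p = 0.0694 over 7 tests) and the number by 0.21 ± 0.075 (adjusted p = 0.064, both by studentised label permutation). With the same Rasa1 guide in both places there were 117 tumours in H11-Cas9 and 201 in KT. In KT, where nothing is cut, these tumours were smaller than inert/inert tumours, with a mean log2 ratio of -1.21. Their number differed from KT by -0.60 ± 0.24 in H11-Cas9 (adjusted p = 0.0694) and by -0.99 ± 0.35 in H11-LSL-Cas9 (adjusted p = 0.064).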
